A study of Mus musculus with 20 samples.

Results

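Collagens are the main structural proteins of the extracellular matrix. Their alpha chains wind around each other into a helix, and the type decides what the helix builds. Fibrillar collagens form the rope-like fibres that accumulate in scar tissue. Type IV collagen forms the sheet at the heart of basement membranes, under epithelia and around vessels. The remaining types link fibrils, anchor membranes, form fine filaments or span the cell membrane. In liver, most collagen transcripts are credited to hepatic stellate cells, portal fibroblasts and endothelial cells rather than to hepatocytes, with type XVIII as a known exception that hepatocytes make in quantity.

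The collagen genes were all genes whose symbol holds Col, a type number, a lower-case a and a chain number, as in Col4a1. The rule gave 43 of the 37681 genes in the tables, all protein coding and together covering 26 collagen types. Of these, 11 were fibrillar (types I, II, III, V, XI, XXIV and XXVII), 6 were basement membrane genes (the type IV chains Col4a1 to Col4a6) and 26 were of other types. The rule used names and no measured value.

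RNA came from the livers of 10 male C57/BL6 mice aged 12 weeks, given by the study as C57/B6J. IL-1β, a cytokine that starts inflammatory signaling, was injected into the peritoneum of 5 mice at 20 µg/kg, and 5 mice received saline and are called untreated, with tissue taken 4 hours later. The treated mice were ILB_9577, ILB_9578, ILB_9579, ILB_9582 and ILB_9583, and the untreated mice UNT_9574, UNT_9575, UNT_9576, UNT_9580 and UNT_9584; values listed per mouse follow this order. From the RNA of each mouse 1 library was made per platform (Illumina HiSeq or Ion Torrent Proton), and reads were aligned by 3 routes (GSNAP, STAR, and STAR then Bowtie2), so that there were 6 tables of 10 libraries. The labels name no transgene or deletion, and IL-1β was compared with saline within each table.

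Libraries held 10568530 to 12008799 counts with Illumina and 12199528 to 16439683 with Ion Torrent. Summed hepatocyte markers (6 genes, Alb among them) stood at 66793 to 123926 CPM (counts per 1000000 counts, after TMM scaling of library totals) in the GSNAP tables. Of the 6 markers, 1 was called higher and 3 lower there, beside 22.5 to 23.7% and 23.9% of all genes tested. A set of 6 genes of pancreas, fat and muscle summed to at most 0.138 CPM. A pair of libraries stood apart for collagens. Among the treated mice, ILB_9578 was lowest for 14 to 17 of the 22 collagen genes with a mean of at least 10 reads, in all 6 tables, and for 23.9 to 28.3% of all genes at that level. Among the untreated mice, UNT_9584 was lowest for 15 to 18 of the 22 with Illumina, and for 26.8 to 27.7% of all genes at that level. With Ion Torrent it was lowest for 0 to 3 of the 22, and for 19.1 to 20.5% of all genes.

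The study's minimum of 5 reads in 5 samples of any table was passed by 25 of the 43 collagen genes, 8 fibrillar, 3 basement membrane and 14 other, and 23 passed it in every table. The other 18 never exceeded 11 reads in a library. Among them were Col2a1 and Col11a1 (cartilage fibrils, 5 and 3 reads in all 60 columns), Col10a1 (growth plate cartilage, 1 read), Col9a1, Col9a2 and Col9a3 (cartilage fibril surface), Col17a1 (skin hemidesmosomes, 38 reads), and Col4a3, Col4a4 and Col4a6 (chains of kidney and other specialised basement membranes, 129, 154 and 104 reads). The rest were Col6a4, Col6a5, Col8a2, Col19a1, Col22a1, Col23a1, Col24a1 and Col28a1. These 18 genes stayed out of the calls below. Fitted with no minimum, where 12 to 16 of them had any read in a table, none was called higher and 0 to 3 were called lower per table (edgeR, adjusted p under 0.05). The share of all genes called in these fits is not given here, so these calls cannot be set against it. At an unadjusted p under 0.05, 1 of the 18 was higher in 1 table, Col9a3 with Ion Torrent GSNAP (edgeR adjusted p 0.0808). At the same threshold Col8a2 was lower in every table, and Col24a1, Col4a3, Col17a1 and Col4a4 in fewer tables. Col24a1, a fibrillar chain, was called lower in 4 tables, with Ion Torrent STAR + Bowtie2 counts of 1, 0, 0, 0 and 0 in treated and 5, 2, 5, 10 and 6 in untreated mice. Col8a2, a network collagen, was called lower in 3 tables and Col17a1 in 1. Col4a3 was called lower in 2 tables, with Ion Torrent GSNAP counts of 1, 0, 0, 0 and 0 against 3, 3, 5, 7 and 4. In these tables the groups of both genes did not overlap. With Illumina GSNAP, Col4a3 had 0, 1, 3, 1 and 1 reads against 3, 3, 4, 3 and 4, and the groups met.

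Across the 25 tested genes, edgeR's quasi-likelihood test with Benjamini-Hochberg adjustment over all 15578 genes tested called a gene at an adjusted p under 0.05. Col4a1, Col4a2, Col12a1, Col25a1 and Col11a2 were called higher with IL-1β in all 6 tables, and Col15a1, Col14a1, Col5a3, Col6a1 and Col6a3 were called lower in all 6. With limma-voom, with DESeq2 and with the Mann-Whitney test Col5a3 was called in 3 of the 6 tables each, and with the Mann-Whitney test Col6a1 and Col6a3 were called in 4 and Col11a2 in 2. With Illumina GSNAP, 6 collagen genes were called higher and 6 lower, beside 23.7% and 23.9% of all genes tested. Illumina STAR gave 6 and 5 (22.7% and 22.9% of all genes) and Illumina STAR + Bowtie2 gave 6 and 6 (22.9% and 24.4%). Ion Torrent GSNAP gave 5 and 8 (22.5% and 23.9%), Ion Torrent STAR 5 and 7 (20.3% and 21.8%), and Ion Torrent STAR + Bowtie2 5 and 7 (22.8% and 24.0%). As shares of the 25 tested members, 20 to 24% were called higher and 20 to 32% lower, so the number of collagen genes that moved was near the background in these livers. The median log2 fold change of the 25 was -0.25 to -0.52, beside -0.01 to 0 over all genes tested.

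Counts of higher calls held at 5 to 7 with any 1 mouse left out. Lower calls did not: without ILB_9578 they were 3 to 5 per table, and without ILB_9577, the treated mouse with the most fibrillar collagen reads, 9 to 12. Without UNT_9584 they were 5 to 8. The Illumina and Ion Torrent libraries of UNT_9584 also resembled each other less than those of the other 9 mice, with a correlation of their deviations from the group mean over all genes tested of 0.167 to 0.228 beside 0.502 to 0.667. The study too reported lower correlations between platforms for UNT_9584, and a shifted distribution of its Ion Torrent read lengths. It proposed that read length could be a source of technical variability. The part of read length in the collagen results was not tested.

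The change with the smallest adjusted p was in type IV collagen. Col4a1 encodes the alpha1 chain, of which the common basement membrane helix holds more than of its alpha2 partner, encoded by Col4a2. Illumina GSNAP counts of Col4a1 were 1619, 1291, 1640, 1419 and 1403 in the treated mice and 364, 330, 272, 356 and 200 in the untreated mice. Ion Torrent GSNAP counts were 2358, 2028, 2609, 2216 and 2279 against 545, 566, 459, 490 and 502. The lowest treated mouse lay far above the highest untreated mouse on both platforms. Col4a1 rose 4.94- to 5.58-fold over the 6 tables (log2 2.30 to 2.48, standard error 0.10 to 0.14, edgeR adjusted p 3.22e-11 to 8.43e-09).

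Col4a2 counts with Illumina GSNAP were 834, 554, 567, 570 and 780 in treated mice against 307, 233, 244, 299 and 124 in untreated mice. With Ion Torrent GSNAP they were 1358, 939, 1011, 966 and 1490 against 484, 508, 435, 513 and 450. The groups did not overlap in any of the 6 tables, although the treated mice were spread more widely than for Col4a1, with ILB_9577 and ILB_9583 highest. Col4a2 rose 2.68- to 3.12-fold (log2 1.42 to 1.64, edgeR adjusted p 5.57e-07 to 8.89e-06). Both genes were called in all 60 fits that left out 1 mouse from 1 table, with a log2 fold change of 2.26 to 2.56 for Col4a1 and 1.28 to 1.77 for Col4a2.

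These genes lie head to head on chromosome 8 (NCBIM37), Col4a1 at chr8:11198423-11312826 on the minus strand and Col4a2 at chr8:11312805-11449287 on the plus strand. Their annotated first exons share 22 bases. This short stretch is shown because both type IV genes that rose start here. It is read on the plus strand from chr8:11312801-11312830, and the capitals mark the bases that belong to both gene models.
Col4a1 and Col4a2: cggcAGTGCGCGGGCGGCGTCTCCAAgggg
The other type IV genes are paired in the same way. Col4a4 and Col4a3 start 71 bases apart on chromosome 1, and Col4a6 and Col4a5 start 1308 bases apart on the X chromosome. The stretch between the starts of Col4a4 and Col4a3, at chr1:82583425-82583495 on the plus strand, is printed for comparison with the overlapping pair.
Col4a4 and Col4a3: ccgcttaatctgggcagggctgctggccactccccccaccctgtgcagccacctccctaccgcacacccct

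Of these 4 chains only Col4a5, an X-linked chain mutated in Alport syndrome, passed the minimum. Its Illumina GSNAP counts were 33, 19, 21, 17 and 16 in treated mice and 22, 36, 25, 27 and 19 in untreated mice, and the groups overlapped. Ion Torrent GSNAP counts were 12 to 35 against 23 to 44. Col4a5 was not called in any table (log2 -0.61 to 0.09, edgeR adjusted p 0.0935 to 0.813), and its sign in the Illumina tables changed with the aligner. Among the 3 type IV genes tested, the chromosome 8 pair was called higher, and no test compared their effects with that of Col4a5.

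**Figure D1:**
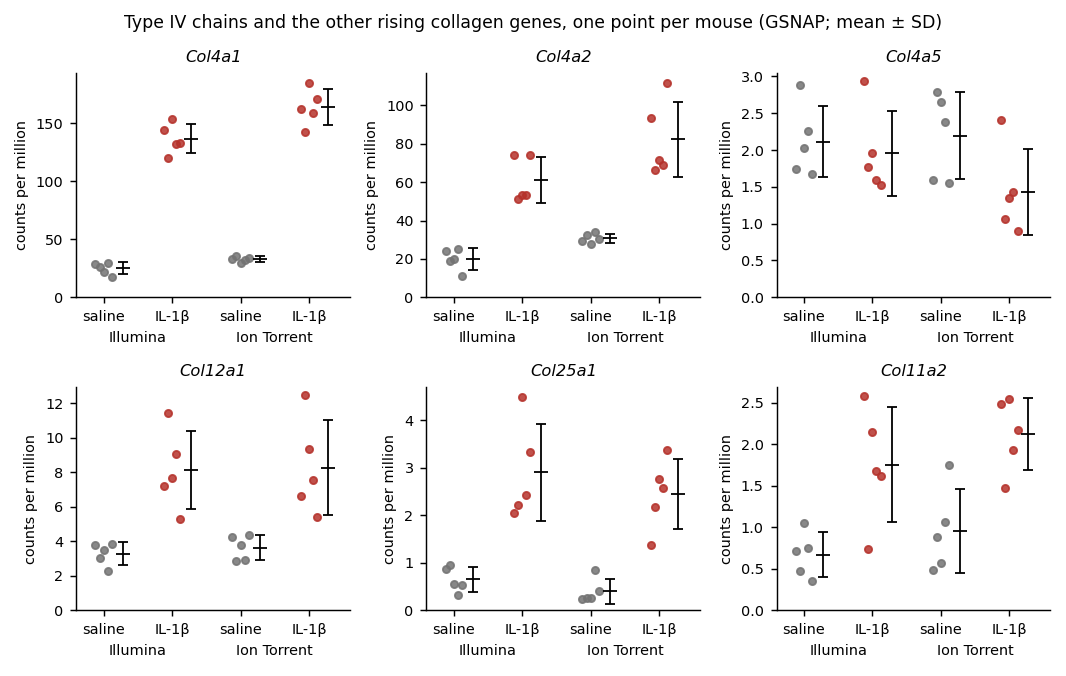
CPM (TMM-scaled, GSNAP tables) of Col4a1, Col4a2, Col4a5, Col12a1, Col25a1 and Col11a2, with 1 point per mouse, untreated in grey and IL-1β in red, and the mean with SD beside each group of 5. The groups of Col4a1, Col4a2, Col12a1 and Col25a1 do not overlap on either platform, while those of Col4a5 and Col11a2 do.

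Because both chains enter the same molecule, their balance was measured within each library as the ratio of counts per kilobase of exon, which needs no scaling between libraries. In untreated mice the Col4a1 to Col4a2 ratio (geometric mean) was 1.01 to 1.29 across the 6 tables, and with IL-1β it was 1.88 to 2.22. The log2 ratios with Illumina GSNAP were 0.91, 1.18, 1.49, 1.27 and 0.80 in treated mice and 0.20, 0.46, 0.11, 0.21 and 0.65 in untreated mice. With Ion Torrent GSNAP they were 0.75, 1.07, 1.32, 1.16 and 0.57 against 0.13, 0.11, 0.03, -0.11 and 0.12. Every treated mouse had a higher ratio than every untreated mouse, with ILB_9579 highest and ILB_9583 lowest among the treated in both GSNAP tables.

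The difference was 0.79 to 0.92 on the log2 scale, with a two-sided exact permutation p of 0.00794 in each table, the smallest that 5 mice against 5 allow, and an adjusted p of 0.0476 over the 36 ratio tests run. It stayed between 0.70 and 1.02 with any 1 mouse left out. Col4a1 thus rose further than Col4a2 in both sets of libraries. Reads in the 22 shared bases, and in 43 bases of Col4a2 exon that lie opposite the antisense gene Gm15419, could have been counted for either gene, since the use of strand in counting is not given in the sources used here.

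No other ratio was called. Col1a1 over Col1a2, the partners in type I collagen, was 0.60 to 0.64 higher in log2 with IL-1β on Illumina and 0.06 to 0.20 higher on Ion Torrent, with an exact permutation p of 0.0238 to 0.794 and an adjusted p of 0.122 to 0.955. The difference of Col6a1 over Col6a2 was -0.28 to 0.03, that of Col6a1 over Col6a3 -0.08 to 0.23, that of Col5a1 over Col5a2 -0.20 to 0.20 and that of Col3a1 over Col1a1 -0.46 to 0.20. Adjusted p-values of these 4 ratios were 0.229 to 0.984 by the exact permutation test.

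**Figure D2:**
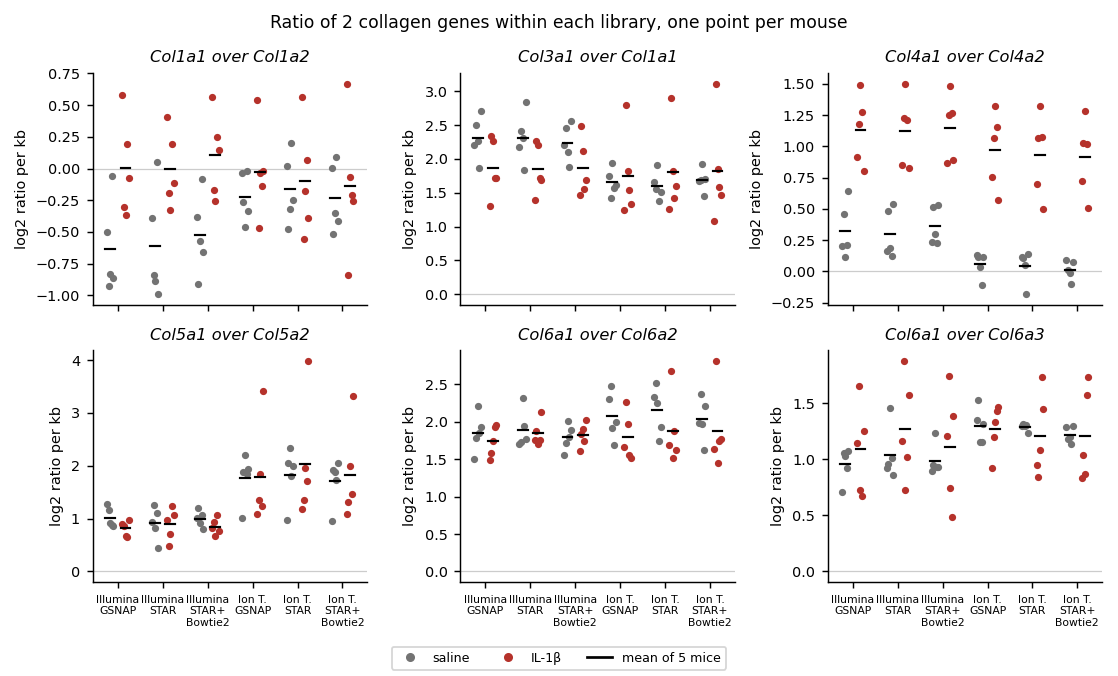
Log2 ratio of 2 collagen genes per kilobase of exon within each library, for 6 pairs (panels) and 6 tables (horizontal axis), with 1 point per mouse, untreated in grey and IL-1β in red, and black bars at the mean of 5. Only in the panel of Col4a1 over Col4a2 do the treated mice lie above the untreated mice in every table, with a difference of 0.79 to 0.92.

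Outside type IV, 3 genes rose in all 6 tables. Col12a1 (chr9:79446798-79566638, minus strand) encodes a collagen that sits on the surface of fibrils. Its Illumina GSNAP counts were 81, 123, 82, 97 and 56 in treated mice against 48, 38, 43, 27 and 44 in untreated mice, and with Ion Torrent GSNAP 72 to 177 against 44 to 70. The groups were separate in every table, and Col12a1 rose 2.09- to 2.52-fold (log2 1.06 to 1.33, edgeR adjusted p 9.34e-05 to 0.000622). ILB_9578, lowest for most collagens, was the highest treated mouse here.

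Col25a1 (chr3:129883809-130302795, plus strand), a membrane-spanning collagen known from neurons, was low in untreated liver. Illumina GSNAP counts were 23, 24, 48, 26 and 35 in treated mice against 11, 12, 7, 4 and 6 in untreated mice. Ion Torrent GSNAP counts were 20, 31, 39, 36 and 45 against 4, 4, 4, 13 and 6. No untreated mouse reached a treated one, and the fitted rise was 4.36- to 6.03-fold (log2 2.13 to 2.59, standard error 0.29 to 0.40, edgeR adjusted p 8.70e-06 to 0.000112). Per kilobase of exon Col25a1 still stood at only 0.313 ± 0.109 CPM (SD, n = 5) after IL-1β in the Illumina GSNAP table.

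Col11a2 (chr17:34176382-34203630, plus strand), a fibrillar chain best known from cartilage, had 29, 8, 23, 18 and 17 reads in treated and 9, 6, 13, 9 and 4 in untreated mice with Illumina GSNAP. With Ion Torrent GSNAP the counts were 21 to 36 against 8 to 26. The groups overlapped in 4 of the 6 tables, through ILB_9578 in the Illumina GSNAP counts and through UNT_9584 in the Ion Torrent GSNAP counts. The fitted rise was 2.24- to 3.24-fold (log2 1.16 to 1.70, edgeR adjusted p 0.000975 to 0.0105), and a Mann-Whitney test called it in 2 of the 6 tables. Col20a1, a relative of Col12a1, was called higher in the 3 Illumina tables (log2 0.77 to 0.91) and not in the Ion Torrent tables (0.20 to 0.40).

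Among the genes that fell, Col15a1 (chr4:47221033-47326039, plus strand) changed most. It encodes a multiplexin of the vessel wall and the border of the basement membrane. Illumina GSNAP counts were 30, 35, 27, 31 and 27 in treated mice and 121, 91, 141, 66 and 53 in untreated mice. Ion Torrent GSNAP counts were 31, 40, 52, 50 and 38 against 180, 177, 179, 102 and 127. Treated mice formed a tight low group, ILB_9578 included, and did not overlap the untreated mice in any table. Col15a1 fell 2.64- to 3.24-fold (log2 -1.40 to -1.70, edgeR adjusted p 3.48e-06 to 0.000830). It remained called in all 60 fits without 1 mouse.

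Col14a1 (chr15:55139305-55352358, plus strand) encodes another collagen of the fibril surface and was, per kilobase, next to Col18a1 and Col5a3 the most abundant collagen of untreated liver. Its Illumina GSNAP counts were 464, 238, 333, 338 and 226 in treated and 779, 638, 636, 580 and 500 in untreated mice, and with Ion Torrent GSNAP 224 to 580 against 635 to 951. Groups were separate in all 6 tables, and the gene was called lower in all 60 fits without 1 mouse. Col14a1 fell 1.60- to 1.74-fold (log2 -0.67 to -0.80, edgeR adjusted p 0.000980 to 0.00598), so the fibril surface collagens XII and XIV moved in opposite directions.

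Col5a3 (chr9:20574494-20619511, minus strand) encodes a chain of type V collagen, which helps start and size collagen fibrils. Illumina GSNAP counts were 359, 168, 381, 329 and 358 in treated and 556, 516, 476, 865 and 594 in untreated mice. Ion Torrent GSNAP counts were 447, 226, 609, 480 and 477 against 572, 595, 638, 985 and 1703. The Illumina groups were separate, and in the Ion Torrent counts ILB_9579 reached into the untreated range while UNT_9584 stood far above it. The fall was 1.68- to 1.87-fold (edgeR adjusted p 0.00536 to 0.0300). In the 3 Ion Torrent tables it was called by none of limma-voom, DESeq2 and the Mann-Whitney test, and by edgeR it was lost in all 3 without UNT_9584 or without ILB_9578. Without UNT_9584 the log2 fold change in the Ion Torrent GSNAP table went from -0.87 to -0.48 and was no longer called, nor was it without ILB_9577 (-0.86), ILB_9578 (-0.70), ILB_9582 (-0.90) or UNT_9580 (-0.82). In the Illumina GSNAP table it was called in each of these fits, with -0.73 without UNT_9584.

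Type VI collagen, which forms beaded filaments around cells, fell through its chains Col6a1 (chr10:76171537-76188913, minus strand) and Col6a3 (chr1:92663435-92740529, minus strand). Col6a1 counts with Illumina GSNAP were 95, 30, 53, 62 and 43 in treated and 112, 98, 105, 116 and 86 in untreated mice, and Col6a3 counts 117, 26, 87, 106 and 49 against 186, 128, 140, 167 and 111. With Ion Torrent GSNAP the ranges were 38 to 130 against 159 to 269 for Col6a1 and 45 to 187 against 185 to 288 for Col6a3. The highest treated mouse was ILB_9577 in each case, and it reached the untreated range in the Illumina counts of both genes and in the Ion Torrent counts of Col6a3.

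Over the 6 tables Col6a1 fell 1.57- to 1.99-fold (edgeR adjusted p 0.00348 to 0.0326) and Col6a3 1.69- to 1.88-fold (0.00919 to 0.0443). With the Mann-Whitney test Col6a1 was not called in the Illumina STAR and STAR + Bowtie2 tables, and Col6a3 not in the Illumina STAR and Ion Torrent GSNAP tables. With 1 mouse left out, Col6a1 was called in 54 of 60 edgeR fits and Col6a3 in 46. The Col6a1 call in the Illumina STAR table was lost without ILB_9578 (log2 -0.50), ILB_9579, ILB_9583, UNT_9574, UNT_9576 or UNT_9580. The Col6a3 call there was lost without ILB_9578 (-0.56), ILB_9583, UNT_9574, UNT_9575, UNT_9580 or UNT_9584 (-0.82). Without ILB_9578 the log2 fold change of Col6a3 in the Illumina GSNAP table was -0.55 and was not called. It was not called there without ILB_9583 (-0.65), UNT_9574 (-0.69), UNT_9576 (-0.78) or UNT_9580 (-0.70) either. The third chain, Col6a2, lay at -0.53 to -0.74 in log2 and passed in no table, with a lowest edgeR adjusted p of 0.0501.

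**Figure D3:**
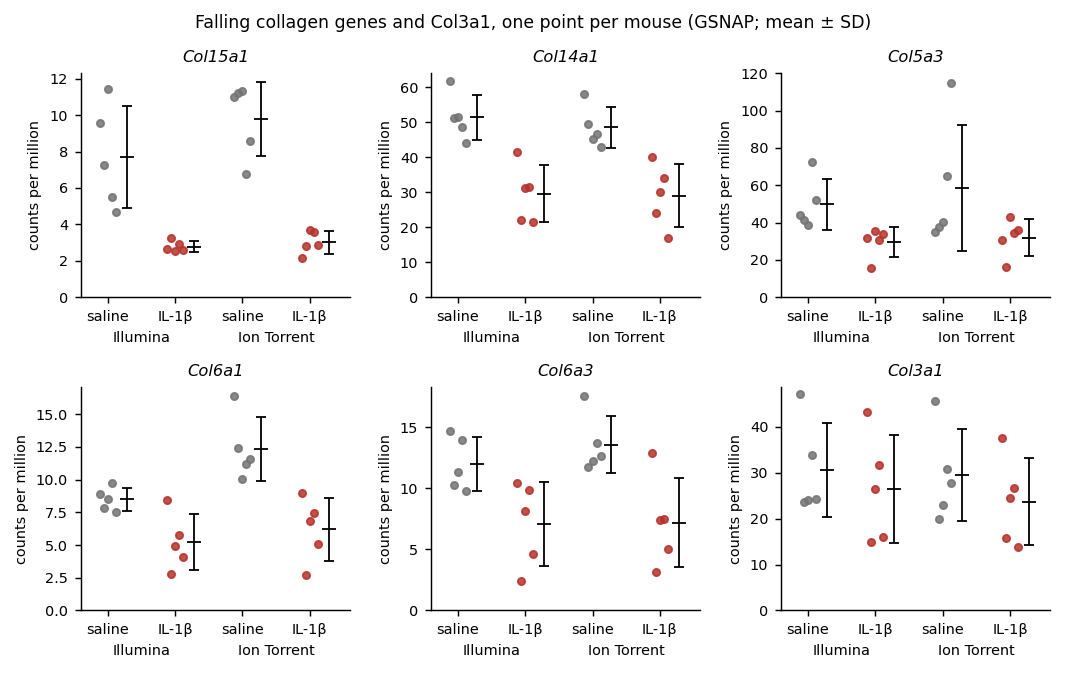
CPM (TMM-scaled, GSNAP tables) of Col15a1, Col14a1, Col5a3, Col6a1, Col6a3 and, for comparison, Col3a1, with 1 point per mouse, untreated in grey and IL-1β in red, and the mean with SD beside each group of 5. Col15a1 and Col14a1 separate on both platforms, the high Ion Torrent point of Col5a3 is UNT_9584, and the groups of Col3a1 overlap.

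The best known scar collagens were not called. Col3a1 (chr1:45368383-45406551, plus strand), the chain of type III fibrils, had Illumina GSNAP counts of 484, 161, 282, 340 and 168 in treated and 594, 296, 296, 404 and 275 in untreated mice, and with Ion Torrent GSNAP 184 to 545 against 313 to 747. The groups overlapped on both platforms, with ILB_9578 and ILB_9583 lowest. Its log2 fold change was -0.21 to -0.36 with a standard error of 0.24 to 0.27 (edgeR adjusted p 0.254 to 0.571). Col1a2 lay at -0.36 to -0.53 and Col5a2 at -0.46 to -0.66, and neither was called in any table. With these errors, an adjusted p above the threshold does not show that they were unchanged.

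Col1a1, the main chain of type I collagen, had treated counts of 154, 25, 46, 81 and 40 and untreated counts of 101, 41, 48, 87 and 33 with Illumina GSNAP. The treated values spanned a wider range than the untreated ones, from ILB_9578 to ILB_9577, which were also the lowest and highest of all 10 mice. Its log2 fold change was positive with Illumina (0.25 to 0.32) and negative with Ion Torrent (-0.22 to -0.31), and it was called in none (edgeR adjusted p 0.542 to 0.656). Col5a1 was called lower in 3 of the 6 tables, with -0.52 to -0.73. In the annotation, Col1a1 shares 109 exon bases with the antisense gene Gm17329 and Col5a1 shares 113 and 99 with Gm13372 and 2810430I11Rik.

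Col27a1 (chr4:62875038-62996025, plus strand), a fibrillar chain of cartilage and other tissues, was called lower in the 3 Ion Torrent tables only (log2 -0.66 to -0.70, edgeR adjusted p 0.0360 to 0.0436), beside -0.55 to -0.56 in the Illumina tables. Illumina GSNAP counts were 570, 353, 542, 519 and 595 in treated and 861, 769, 1646, 736 and 317 in untreated mice. Ion Torrent GSNAP counts were 725, 326, 659, 654 and 801 against 1031, 993, 2079, 830 and 808. The high value belonged to UNT_9576 on both platforms. Without that mouse the log2 fold change was -0.39 with Ion Torrent GSNAP and -0.20 with Illumina GSNAP and was not called. In the Ion Torrent GSNAP table the call was lost too without ILB_9577 (-0.73), ILB_9578 (-0.53), ILB_9579 (-0.71) or ILB_9582 (-0.71). In the Illumina GSNAP table it was gained without UNT_9584 (-0.76).

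Col18a1 (chr10:76514923-76629293, minus strand), the basement membrane multiplexin whose end fragment is endostatin, dominated the collagen reads. Its Illumina GSNAP counts were 6940, 3866, 5307, 5847 and 6568 in treated and 8168, 7020, 8465, 10362 and 4643 in untreated mice, and Ion Torrent GSNAP counts 6366 to 12077 against 13070 to 17094. On Illumina UNT_9584 lay among the lowest treated mice, and on Ion Torrent it was 1 of the 2 highest of all libraries in each table. The log2 fold change was -0.25 to -0.27 in the Illumina tables, not called, and -0.45 to -0.48 in the Ion Torrent tables, called lower (edgeR adjusted p 0.0249 to 0.0315). Without ILB_9578 the Ion Torrent GSNAP value was -0.34 and without UNT_9584 -0.40, both not called, and it was not called either without ILB_9579 (-0.45), ILB_9582 (-0.46) or UNT_9580 (-0.39).

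The remaining tested genes were low or variable. Col7a1 (anchoring fibrils of skin, log2 0.38 to 0.86), Col13a1 (a membrane-spanning collagen, 0.32 to 0.52), Col16a1 (fibril surface, -0.17 to -0.52), Col8a1 (a network collagen of vessels, -0.30 to -1.40) and Col6a6 (a further type VI chain, -0.25 to -1.13) were called in no table.

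**Figure D4:**
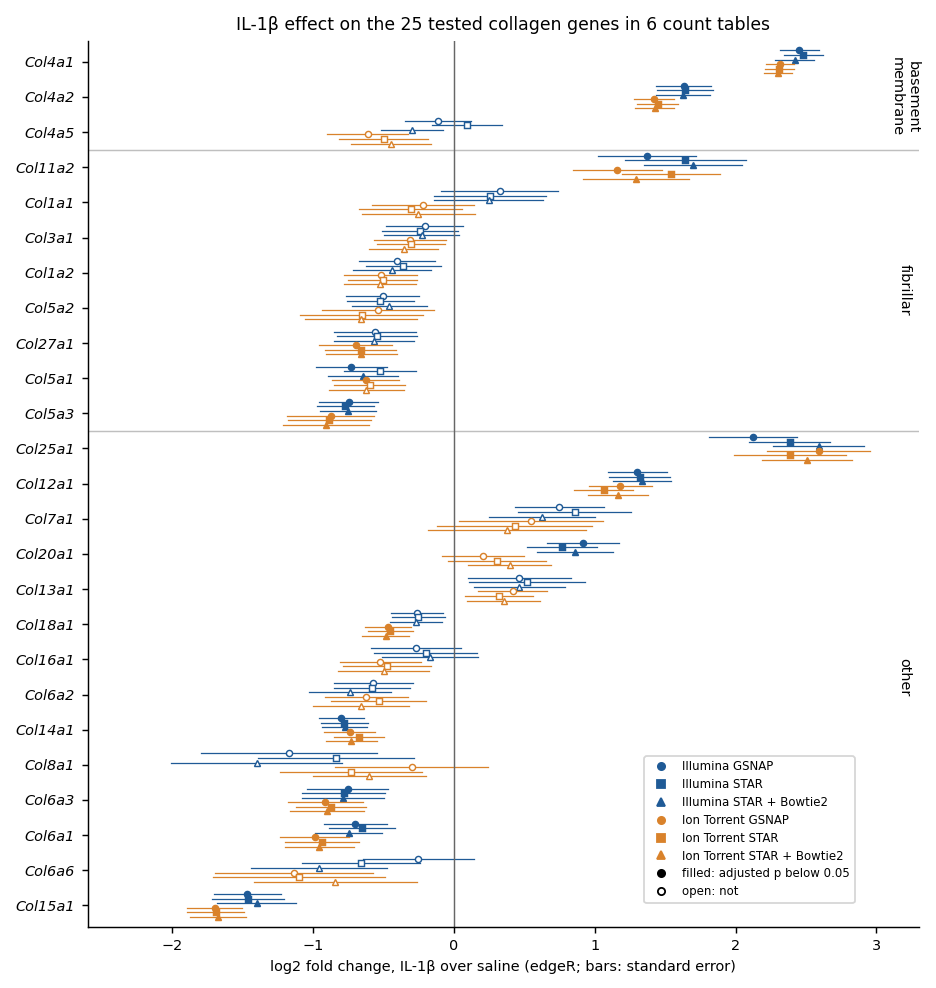
Log2 fold change of IL-1β over saline with its standard error (edgeR) for the 25 tested collagen genes, grouped by class, with 1 symbol for each of the 6 tables (Illumina blue, Ion Torrent orange). Filled symbols have an adjusted p under 0.05, and all 6 are filled for Col4a1, Col4a2, Col11a2, Col25a1 and Col12a1 on the right and for Col5a3, Col14a1, Col6a3, Col6a1 and Col15a1 on the left.

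The difference between the Ion Torrent and Illumina effects of each gene was tested as a platform-by-treatment term, with the mouse as a block, over the 20 libraries of an aligner. No collagen gene was called by edgeR with any of the 3 aligners, and none by limma-voom or DESeq2. Of all genes tested, GSNAP called 0.0642%, STAR 0.00642% and STAR + Bowtie2 0.0770%. At an unadjusted p under 0.05 there was 1 of the 25 collagen genes with each aligner, Col1a1, with a difference of -0.54 to -0.58 in log2 (Ion Torrent minus Illumina, edgeR adjusted p 0.578 to 0.669). The Col20a1, Col18a1 and Col27a1 calls made on 1 platform are thus not shown to differ between platforms. The Ion Torrent effect was below the Illumina effect for 20 or 21 of the 25 genes, with a median difference of -0.16 to -0.17 in log2. The genes share the same libraries, and this lean was not tested.

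Summed by class, the composition of the collagen reads shifted. The type IV genes summed to 200 ± 19.4 CPM with IL-1β and 47.5 ± 10.6 CPM in untreated mice (SD, n = 5, Illumina GSNAP), without overlap, and the fibrillar genes to 129 ± 34.3 against 181 ± 41.1 CPM, with overlap. The other genes, most of whose reads were Col18a1, summed to 596 ± 114 against 730 ± 175 CPM. Type IV thereby went from 4.99 to 22.0% of the collagen reads with Illumina GSNAP and from 5.05 to 22.1% with Ion Torrent GSNAP. Most of the collagen reads were Col18a1 in both groups. The sum over all 43 genes was 926 ± 162 against 958 ± 220 CPM with Illumina GSNAP, which do not differ beyond the spread. With Ion Torrent GSNAP it was 1145 ± 228 against 1335 ± 169 CPM. Without ILB_9578, chosen after seeing the data, the treated fibrillar sum was 142 ± 18.9 CPM with Illumina GSNAP and 143 ± 12.8 CPM with Ion Torrent GSNAP (n = 4), still overlapping the untreated sums, and the type IV sums stayed apart. Sums were not tested.

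**Figure D5:**
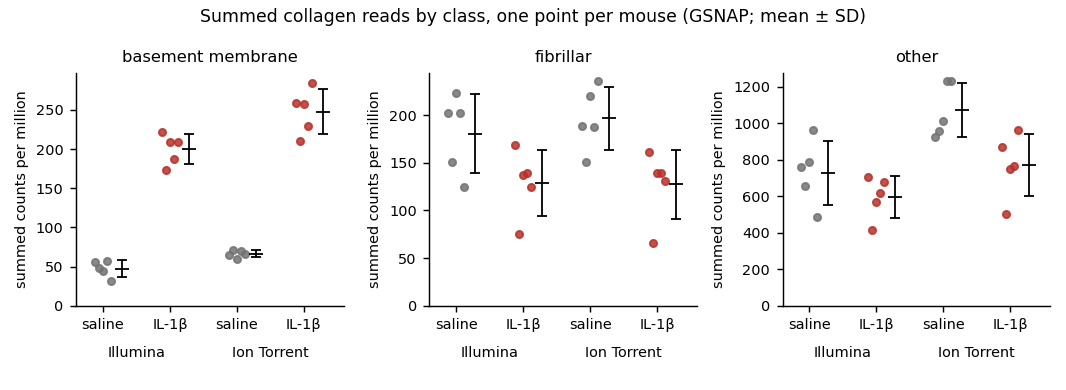
Summed CPM of the 6 basement membrane, 11 fibrillar and 26 other collagen genes in the GSNAP tables, with 1 point per mouse, untreated in grey and IL-1β in red, and the mean with SD beside each group of 5. The treated sums lie at 173 to 222 against 31.1 to 57.7 CPM for the basement membrane class on Illumina, while the other classes overlap.

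Levels were compared between genes per kilobase of annotated exon. In untreated mice (Illumina GSNAP) Col18a1 stood at 90.3 ± 24.0 CPM per kilobase, far above the rest. Col14a1 (7.33 ± 0.93), Col5a3 (7.30 ± 2.01) and Col27a1 (5.42 ± 2.96) followed and do not differ beyond their spread. Next came Col4a1 (3.66 ± 0.75), Col3a1 (3.64 ± 1.21) and Col4a2 (2.98 ± 0.86), again indistinguishable. With IL-1β, Col4a1 reached 20.0 ± 1.9 and Col4a2 9.25 ± 1.79, which placed them directly below Col18a1 at 75.3 ± 15.5 CPM per kilobase.

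The sequence just before the annotated start was compared between the groups that rose and fell. Windows of 250 bases were read from NCBIM37 for all 43 genes and for 22375 protein-coding genes and searched on both strands for an NF-κB pattern of 10 bases, TGACTCA (AP-1), TTCNNNGAA (STAT factors), TATAAA (the TATA box), CCAAT (the CCAAT box) and GGGCGG (the GC box). In all windows these occur in 1.23%, 3.85%, 6.83%, 12.3%, 35.0% and 39.6%. The windows of the 5 genes that rose held CCAAT in 3 cases and GGGCGG in 4 and none of the other patterns. Those of the 5 that fell held CCAAT and GGGCGG in 2 each and TTCNNNGAA and TATAAA in 1 each. A match describes letters in this window, and its absence says nothing about a factor. The windows of Col4a1 and Col4a2 lie within each other's gene and are not printed.

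The windows of 1 gene that rose and 2 that fell show these patterns in place, with no match in that of Col15a1. Each is printed 5′ to 3′ on the strand of its gene, and capitals mark a match to any of the 6 patterns on either strand, with neighbouring or overlapping matches run together. They come from chr3:129883559-129883808, chr4:47220783-47221032 and chr15:55139055-55139304, all on the plus strand.
Col25a1: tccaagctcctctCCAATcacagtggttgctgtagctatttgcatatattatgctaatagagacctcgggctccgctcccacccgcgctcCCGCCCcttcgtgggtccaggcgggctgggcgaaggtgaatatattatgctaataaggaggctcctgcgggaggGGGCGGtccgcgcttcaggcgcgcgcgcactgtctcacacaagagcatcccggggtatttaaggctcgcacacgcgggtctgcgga
Col15a1: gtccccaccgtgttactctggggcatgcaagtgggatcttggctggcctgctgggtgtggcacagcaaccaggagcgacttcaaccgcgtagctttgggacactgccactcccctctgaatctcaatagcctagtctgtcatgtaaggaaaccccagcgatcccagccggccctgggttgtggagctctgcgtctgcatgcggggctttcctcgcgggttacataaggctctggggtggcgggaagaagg
Col14a1: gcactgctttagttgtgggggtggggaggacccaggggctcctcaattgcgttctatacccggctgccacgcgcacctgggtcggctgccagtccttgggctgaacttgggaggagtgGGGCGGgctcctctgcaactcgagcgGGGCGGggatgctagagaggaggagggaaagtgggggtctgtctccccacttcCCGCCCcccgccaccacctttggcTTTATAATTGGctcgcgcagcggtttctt

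The proteins that fold, modify, cut and bind collagen were counted from fixed lists, to be read against 20.3 to 23.7% of all genes called higher and 21.8 to 24.4% lower. Of 20 chaperones and modifying enzymes, 18 were tested, and 6 were called higher and 2 lower in every table. Lepre1, which hydroxylates prolines of the collagen chain, rose most, with 570, 629, 450, 485 and 649 reads in treated against 189, 237, 153, 141 and 106 in untreated mice (log2 1.93 with Illumina GSNAP, 1.60 to 1.93 over the tables, edgeR adjusted p 3.28e-07 to 1.48e-06). The lysyl hydroxylase Plod3 (0.38 to 0.60) and the folding enzyme Fkbp14 (0.77 to 1.03) also rose in all tables, as did P4hb, Glt25d1 and Tmem38b. Plod1, another lysyl hydroxylase, fell (-0.51 to -0.66). Glt25d2, a glycosyltransferase for hydroxylysine, fell as well, with 0, 1, 1, 1 and 0 reads in treated against 9, 9, 6, 2 and 4 in untreated mice (edgeR adjusted p 0.00154 to 0.0244). Serpinh1, the collagen chaperone HSP47, was not called (-0.15 to 0.01).

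Among 13 genes for propeptide cleavage and cross-linking, 11 were tested, and 2 to 4 were called higher and 1 to 3 lower per table, near the share over all genes. Adamts3, which removes the amino-terminal propeptide of fibrillar collagens, rose by 1.64 to 1.81 in log2 from a few reads. Lox, the cross-linking lysyl oxidase, rose by 1.16 to 2.47 at no more than 10 reads in any library. With Illumina GSNAP every treated mouse held at least 5 reads of Adamts3 and of Lox, and UNT_9574 alone did among the untreated. In that table both genes passed the minimum mainly through the treated mice, so their calls are not independent of it. Bmp1, which cuts the carboxy-terminal propeptide, fell (-0.40 to -0.63, edgeR adjusted p 0.00284 to 0.0333).

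The 16 other basement membrane genes on the list were all tested, with 1 or 2 called higher and 5 or 6 lower per table, beside 20.3 to 23.7% and 21.8 to 24.4% of all genes, and a median log2 fold change of -0.21 to -0.38. The laminin chain Lama3 fell (-1.06 to -1.32), as did Sparc, a collagen-binding matrix protein (-0.50 to -0.60), while the laminin chain Lama5 rose (0.56 to 0.68, edgeR adjusted p 0.0137 to 0.0497). Lamc1, Nid1, Hspg2 and Agrn, the laminin, nidogen, perlecan and agrin genes of most basement membranes, were called in no table.

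Of 10 collagen receptors 8 were tested, with 1 or 2 called higher and 2 lower, near the share over all genes. Itga2, the alpha chain of an integrin that binds collagen, had 5, 9, 13, 9 and 4 reads in treated mice and none in the 5 untreated mice with Illumina GSNAP, where 0 reads allow up to 3. It was called higher in all 6 tables, at log2 3.43 to 6.11, the largest with Illumina GSNAP (edgeR adjusted p 8.04e-05 to 0.000491). In that table the untreated mice added nothing toward the minimum of reads, so this call is not independent of the minimum. Itga1, the alpha chain of the integrin that prefers type IV collagen, fell (-0.59 to -0.74, edgeR adjusted p 0.000734 to 0.0160), and so did Mrc2, a receptor that takes up collagen (-1.02 to -1.25).

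In whole liver, fewer cells of a type and less RNA per cell cannot be told apart. Beside the collagens that fell, 3 of 10 stellate cell markers (Lrat, Reln and Colec11) were called lower in each table, near the share over all genes. Of the 10, 1, Pdgfra, was called higher with Illumina GSNAP. Marker counts are to be read against 21.8 to 24.4% of all genes tested called lower and 20.3 to 23.7% called higher. The summed stellate markers ranged from 283 to 411 CPM in treated and 362 to 461 CPM in untreated mice (Illumina GSNAP), and Pdgfrb, Des, Dcn and Rgs5 were called in no table. Of the 6 portal fibroblast markers 5 were tested and 1 or 2 were called lower, at sums of 3.16 to 7.28 against 5.36 to 7.78 CPM. Of 4 myofibroblast markers 3 were tested and Myl9 was called lower, at sums of 4.92 to 11.3 against 7.04 to 9.96 CPM. With Illumina GSNAP, ILB_9578 was the lowest of all 10 libraries for the portal fibroblast, myofibroblast and mesothelial sums (3.16, 4.92 and 1.30 CPM). It was lowest too for the hepatocyte, cholangiocyte and fibrillar collagen sums (66793, 44.5 and 74.9 CPM). It was not lowest for the stellate sum (316 CPM, beside 283 CPM in ILB_9583), nor for the sinusoidal endothelial and Kupffer sums. The part of these differences in the collagen results was not tested.

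The marker counts that follow are also to be read against 20.3 to 23.7% of all genes called higher and 21.8 to 24.4% lower. Beside the type IV genes that rose, 7 sinusoidal endothelial markers were tested. With Illumina GSNAP 2 of them were called higher and 3 lower, and the sum ranged from 136 to 199 CPM in treated and 160 to 241 CPM in untreated mice. Lyve1 rose (log2 1.49 to 1.72) and Kdr, Clec4g and Fcgr2b fell in all 6 tables. Neutrophil markers rose from 2.59 to 5.31 CPM in untreated to 49.5 to 106 CPM in treated mice (5 of 6 tested, all called higher in every table). Among 6 cholangiocyte markers 5 were tested and Sox9 and Epcam were called higher, at sums of 44.5 to 77.5 against 46.4 to 64.4 CPM. Kupffer cell sums ranged from 58.8 to 136 against 110 to 188 CPM, with Marco called higher and Clec4f and Vsig4 lower in all tables. Of 4 mesothelial markers none was called higher and at most 1 lower. How far these cell types account for the collagen values was not tested.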

How the data were processed

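Liver RNA of 10 mice was sequenced on 2 platforms. As deposited, the 6 tables hold gene counts: the authors aligned reads to mm9 with STAR 2.5.1b, GSNAP or STAR with Bowtie2 2.2.9, and their PORT pipeline removed ribosomal and mitochondrial reads, drew equal numbers of reads from all libraries within a table and counted reads over Ensembl gene models. This makes depths alike within a table. The strand setting of the counting is not given in the sources used here.

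Each table was fitted with edgeR 4.0.16 (quasi-likelihood, TMM, R 4.3.3) on the 15578 genes that reached the study's minimum of 5 reads in 5 samples in any table, without covariates, and p-values were Benjamini-Hochberg adjusted. The study itself used a Mann-Whitney test, which was run as an alternative beside limma-voom 3.58.1, DESeq2 1.42.0, other scalings and filters, and fits without each mouse. Nothing in the labels says that mice of a group shared a litter or cage, and each is treated as a replicate. The platform term used the mouse as a block, since the labels give both libraries of a mouse the same number. Deviations from the group mean, in log2(CPM + 1) over all genes tested, correlated at 0.502 to 0.667 between the 2 libraries of 9 mice and at 0.167 to 0.228 for UNT_9584. Scripts were tested on simulated data.

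Gene ends, exons and sequences were read from NCBIM37 (mm9) with the GENCODE M1 annotation, in which all 43 collagen genes matched by Ensembl identifier. Values per mouse are given for members called in at least 4 tables in 1 direction and for the 3 highest per kilobase in each class of untreated liver, and from each list of partner genes up to 4 called in all 6 tables with the largest change. Other partner and marker genes, and Col1a1, were named after their values were seen. The members and lists were chosen with earlier results of these data known.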

Additional observations from a re-analysis of the deposited data

Results flagged for a closer look

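Of 56 groups of 5 mice examined in the GSNAP tables, 3 held a library far from the other 4, its gap to the nearest taking more than 0.71 of the range of the group, which chance gives in about 1 in 20 groups.

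Col5a3 in the treated Illumina libraries stood at 15.6 CPM (168 reads) in ILB_9578 against 30.7 to 35.7 CPM in the other treated mice. Its Ion Torrent library was low too, at 15.9 CPM.

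Col25a1 in the untreated Ion Torrent libraries stood at 0.860 CPM (13 reads) in UNT_9580 against 0.244 to 0.405 CPM in the others. In the Illumina table the same mouse was the lowest of the untreated group, at 0.335 CPM (4 reads).

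Col27a1 in the untreated Ion Torrent libraries stood at 132 CPM (2079 reads) in UNT_9576 against 54.6 to 63.0 CPM in the others. The Illumina library of this mouse held 133 CPM (1646 reads).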

How the results depend on the processing

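Over the settings other than leaving out a mouse, 4 to 6 collagen genes were called higher in the Illumina tables and 4 or 5 in the Ion Torrent tables, and 3 to 7 and 4 to 11 were called lower, the most with no minimum on reads, which admitted 2 or 3 of the low genes among the Ion Torrent lower calls. The count of lower calls went from 5 to 3 in the Illumina STAR table with a Mann-Whitney test and from 7 to 4 in the Ion Torrent STAR table with limma-voom. Leaving out 1 mouse gave 3 to 9 lower calls with Illumina STAR, 4 to 11 with Ion Torrent GSNAP, 4 to 12 with Ion Torrent STAR and 5 to 11 with Ion Torrent STAR + Bowtie2, the lowest without ILB_9578 and the highest without ILB_9577. With Illumina GSNAP and Illumina STAR + Bowtie2 it gave 4 to 9 each, with 4 reached without ILB_9583 and 9 without ILB_9577. The cause was not tested. Counting types XV and XVIII with type IV changed the lower calls of that class from 0 to 1 in each Illumina table (Col15a1) and to 2 in each Ion Torrent table (Col15a1 and Col18a1). Col4a5, never called, changed sign in the Illumina STAR table, from 0.09 to -0.080 with the Mann-Whitney setting and -0.032 without TMM, and over fits without 1 mouse it ranged from -0.17 to 0.19 there and from -0.31 to 0.026 with Illumina GSNAP. Adding 0.5 reads moved the difference of Col5a1 over Col5a2 in the Ion Torrent GSNAP table from 0.012 to -0.0026. With the replicate block left out, the platform-by-treatment term called 0 collagen genes with each aligner, as it did with the block. No paired analysis was possible for IL-1β against saline because treated and untreated mice share no numbers. The ratios without 1 mouse are values with no test. For genes under about 50 reads, such as Col25a1 and Col11a2, the depth limits the precision of the fold change.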
